A study of Mus musculus with 48 samples.

Results

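The comparison of injured brain tissue after permanent middle cerebral artery occlusion (MCAO) with sham-operated mice at day 7 rests on 9 bulk RNA libraries, 5 of the MCAO group (A to E) and 4 of the sham group (A to D), of 48 libraries in the whole series. They were taken by their labels, and all genes were kept, with the spike-in RNAs and the counter's summary lines left out. All mice were 3-month-old C57Black/6 males, and no transgene or mutated gene is named for any group. In the MCAO group the artery was reached under isoflurane through an opening in the skull, coagulated and cut, which leaves a small infarct in the parietal cortex, and the tissue was taken 7 days later. The shams of the same day went through the surgery without closure of the artery, and 4 control libraries came from intact cortex of mice of the same age. The MCAO and sham libraries of days 1 and 3 were used to set day 7 in time. Per the labels the piece taken was injured cortex plus unaffected tissue around it, while the study also describes it as most of the hemisphere on the injured side. Each value is therefore an average over infarct, border and intact tissue, and striatal genes were measured in amounts that differed between libraries. The labels give a replicate letter to each library but do not tie it to an animal. The p-values of the main test measure the spread between libraries of the same group, estimated for each gene over all 48 libraries in 11 groups.

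By the end of the first week after a stroke, dead tissue is cleared by microglia, the resident macrophages of the brain, and by macrophages that enter from blood and the brain's borders. Such cells take up myelin and cell debris, break it down in lysosomes and export the lipids. Around the lesion astrocytes become reactive and build a border, fibroblasts lay down collagen in the core, and oligodendrocyte precursors divide and begin to mature. In bulk tissue, fewer cells of a type and less RNA per cell cannot be told apart.

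The libraries held between 1522668 and 2017801 counts on genes after MCAO (median 1679400) and between 1788614 and 2375729 in sham (median 2025241), and 16561 to 17611 genes had at least 1 count. Levels are given as CPM, counts scaled to a common library size with TMM factors, from reads of the 3′ ends of transcripts, so they were compared between libraries and not between genes. Library C of the MCAO group stood apart from the other 4. Its mean correlation with the libraries of its group was 0.887, against 0.931 to 0.947 for A, B, D and E. Measured as deviations from the control mean, it was on average more like the MCAO libraries of day 3 (r = 0.60) than those of its own group (r = 0.53), while A, B, D and E were more like day 7 (r = 0.50 to 0.60) than day 3 (r = 0.35 to 0.49), over 11739 genes. Genes of dividing cells were among those that set it apart, and *Mki67* stood at 35.7 CPM in C, between 1.88 and 5.77 in A, B, D and E, and between 18.5 and 36.1 in libraries B to E of day 3, where A was at 2.14. The reverse was seen in library A of the MCAO group of day 3, which was more like the MCAO libraries of day 7 (r = 0.36) than those of its own group (r = 0.21). Library D of the MCAO group of day 1 was also more like other days than its own. Its mean r was 0.48 with the MCAO libraries of day 3, 0.46 with day 7 and 0.41 with its own group. These libraries thus stood against the day on their label. Whether libraries were exchanged was not tested. Values that rest on C, and the comparisons of day 7 with days 1 and 3, hold for the libraries as labelled. Sham D was the least like its group (mean correlation 0.924, against 0.946 to 0.954). The share of reads that could not be placed uniquely was 30.87% to 35.28% after MCAO and 28.75% to 30.37% in sham, without overlap, and its part in the results was not tested. The cortical label was met in all 9 libraries, with *Slc17a7*, the glutamate transporter of cortical excitatory neurons, between 308 and 860 CPM. List counts below are therefore also given without MCAO C and without sham D where these differ from the count with all libraries.

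At day 7, 413 of 19970 genes rose in MCAO against sham and 285 fell, which is 2.07% and 1.43% of the genes tested. A gene was called when the adjusted p of edgeR's quasi-likelihood test was below 0.01 and the log2 fold change was over 0.58 in size. The rises were larger than the falls. The median log2 fold change was 2.19 among the genes called higher and -0.90 among those called lower, against 0.06 over all genes tested, and 228 of the rises but 15 of the falls were over 2 on the log2 scale. Without MCAO C, 143 genes (0.718%) were called higher and 140 (0.703%) lower, of which 140 and 131 were among the calls made with all libraries. None of the 698 called genes turned its direction without C, but the median of the rises moved to 1.60 while that of the falls was -0.85. Without sham D, 157 genes were called higher and 84 lower, and without sham A or sham B 253 and 213 were called higher. With library sizes set by the spike-in RNAs in place of TMM, 403 genes were called higher and 86 lower, and the median over all genes was 0.14. A core of 95 rises and 72 falls was called with each of the 9 libraries left out in turn. The 9 libraries did not overlap for 361 of the genes called higher and 269 of those called lower, beside 5.38% of all genes tested with every MCAO library above every sham and 5.1% with every one below.

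**Figure D1:**
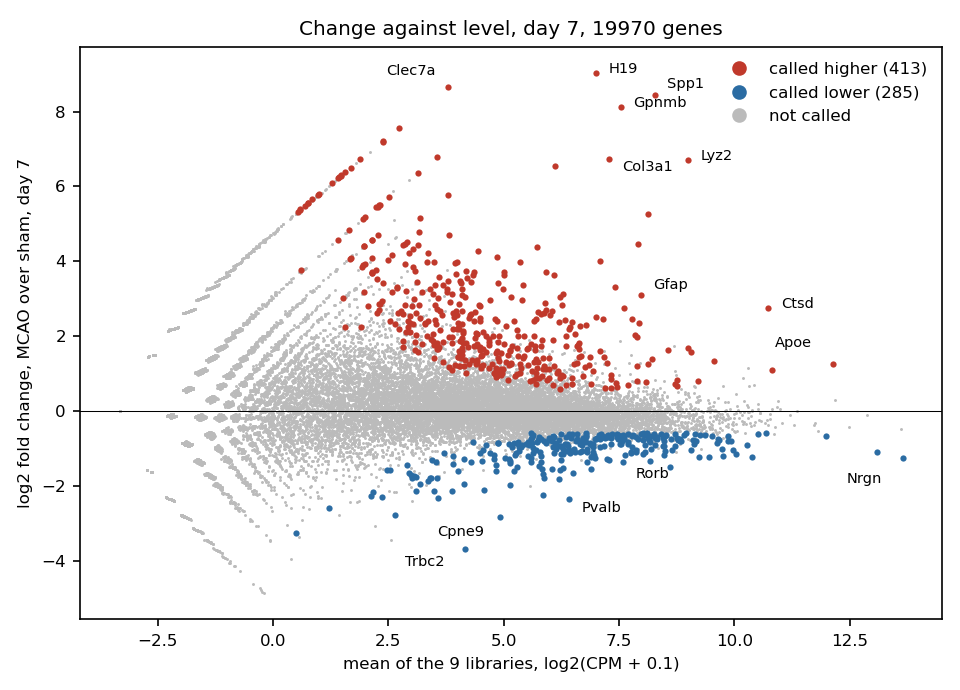
Each point is 1 of 19970 genes, with its mean level in the 9 libraries of day 7 as log2(CPM + 0.1) on the horizontal axis and the log2 fold change of MCAO over sham on the vertical axis. The 413 genes called higher (red) reach 9.03, while the 285 called lower (blue) lie mostly between -0.58 and -2 and include abundant neuronal genes such as *Nrgn*.

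**Figure D2:**
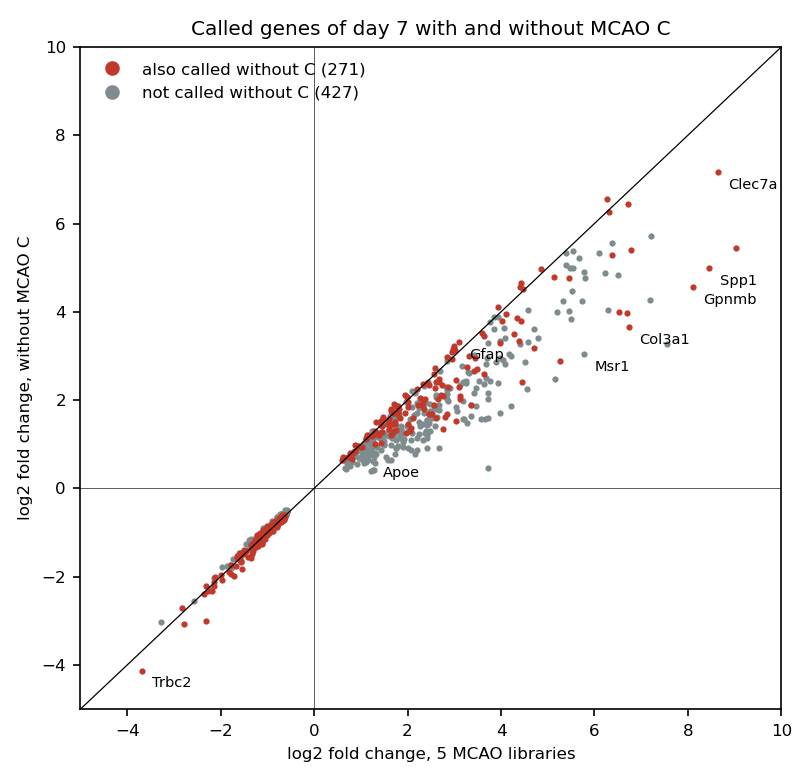
The log2 fold change of each of the 698 called genes with all 5 MCAO libraries (horizontal) is plotted against the value without MCAO C (vertical), and the line marks equal values. Red points are called in both fits and grey points only with C. All points keep their side of 0, the falls lie near the line, and many rises lie below it, with 271 genes in red.

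The largest rises among genes whose 9 libraries did not overlap were mostly in genes of phagocytes. *H19*, a noncoding RNA of an imprinted locus (chromosome 7, 142575529 to 142578143 of GRCm38), had 8.65, 11.7, 1080, 29.3 and 26.3 CPM in MCAO A to E and 0.57, 0.93, 0 and 0 in sham A to D. The shams held 3 counts in all, and the ratio was 570 (95% exact interval 195 to 2770, counting error only). *Clec7a*, the receptor dectin-1 of phagocytes, was at 10.4, 6.62, 89.2, 5.28 and 13.2 CPM after MCAO and at 0 in every sham. With the MCAO libraries pooled, C among them, it was at least 62-fold higher (floor of 3 counts over the sham group). *Spp1* (osteopontin, chromosome 5, 104435118 to 104441050) stood at 49.6, 49.4, 2585, 60 and 40.7 CPM against 0.91 to 3.27 in sham, a log2 fold change of 8.46 ± 1.29 (SE). *Gpnmb*, a glycoprotein of lipid-laden macrophages (chromosome 6, 49036546 to 49070929), was at 17.9, 28.5, 1549, 31.2 and 35.1 CPM against 0.46 to 1.87, a log2 fold change of 8.11 ± 1.21. In each of these genes all MCAO libraries lay above all shams and C was the highest by far, and without C the log2 fold changes were 5.43 for *H19*, 7.16 for *Clec7a*, 4.98 for *Spp1* and 4.56 for *Gpnmb*, all still called. With the spread estimated from the compared groups alone, *H19*, *Clec7a*, *Spp1*, *Gpnmb* and *Col3a1* were not called (edgeR, adjusted p between 0.0105 and 0.0169). The other genes of largest rise were *Ccl4* (at least 23-fold), *Cd5l*, a macrophage scavenger protein (1 sham count, ratio 156, 95% exact interval 27.7 to 6210, counting error only), the collagen gene *Col3a1* (log2 fold change 6.74 ± 1.07) and *Tlr2*, a receptor for microbial and damage signals (at least 16.9-fold). Of these, *Ccl4* was not called without C, and *Col3a1* alone was called with each library left out in turn. *Cd5l* was at 72 CPM in C and at 2.88 to 12.2 in A, B, D and E.

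Among 23 genes of phagocytic and disease-associated microglia, 20 rose and none fell, with a median log2 fold change of 3.04. Part of this list was named by the study for microglia of the same injury, so the count is not independent evidence of a direction. Without C the count was 12 and the median 1.89, without sham D the count was 15, and 12 genes were called with every library left out in turn. *Lyz2*, the lysozyme of myeloid cells, had 90, 177, 4000, 111 and 168 CPM after MCAO and 8.01, 8.40, 6.54 and 11.4 in sham (log2 fold change 6.70 ± 0.96, 3.97 without C). The galectin gene *Lgals3* stood at 15.6, 21.9, 531, 20.6 and 25.7 CPM against 1.14, 3.27, 0 and 0.46, and the phagocyte marker *Cd68* at 28.3, 22.4, 254, 17.3 and 34.4 against 6.39 to 7.47. For these genes the 4 libraries other than C were close together and all above sham. *Ctsd*, the lysosomal protease cathepsin D, was at 809, 985, 9559, 922 and 1455 CPM against 334 to 548. *Igf1*, a growth factor of activated microglia, was at 45, 37.2, 440, 36.5 and 52.6 CPM against 13.2 to 17.3.

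*Apoe* and *Trem2*, a lipid carrier and the lipid-sensing receptor that binds it, rested more on 1 library. *Apoe* had 3369, 4095, 14649, 3673 and 4559 CPM after MCAO and 2248, 2581, 2389 and 2940 in sham, with no overlap. Its log2 fold change was 1.26 ± 0.25 (adjusted p = 0.000756), and 0.63 and not called without C. *Trem2* stood at 23.7, 35.6, 183, 18.7 and 30.1 CPM against 7.09 to 12.3, a log2 fold change of 2.40 ± 0.47 that was 1.30 and not called without C. *Tyrobp*, the signalling adaptor of TREM2, rose by 2.84 ± 0.48 on the log2 scale (1.68 without C) and was called with each library left out in turn. The 3 genes of the list that were not called were *Itgax* (0 to 15.5 CPM against 0 to 0.46), *Ch25h* and *Fabp5*.

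The promoters of the genes of phagocytic microglia are shown because these genes form the list with the most called members. RefSeq windows on GRCm38.p6 were found for 18 of the 23 genes, of which 16 were called, and the 250 bases before the start were read 5′ to 3′ on the gene's strand. The letters GAGGAAG, the core bound by the myeloid factor PU.1, were found on either strand in 5 of the 16 called genes, beside 12% of 27025 genes with such a window. The letters TGANTCA, the site of AP-1 factors, were in 3 of the 16, beside 7.82% of the same genes. The matches of both motifs lie apart from each other in the windows printed. The windows that hold a match are given for 5 called genes, with the matched letters in capitals, at chr5:104434861-104435110 (+) for *Spp1*, chr10:128909095-128909344 (+) for *Cd63*, chr10:87860861-87861110 (+) for *Igf1*, chr17:48346151-48346400 (+) for *Trem2* and chr11:69666171-69666420 (-) for *Cd68*.
Spp1: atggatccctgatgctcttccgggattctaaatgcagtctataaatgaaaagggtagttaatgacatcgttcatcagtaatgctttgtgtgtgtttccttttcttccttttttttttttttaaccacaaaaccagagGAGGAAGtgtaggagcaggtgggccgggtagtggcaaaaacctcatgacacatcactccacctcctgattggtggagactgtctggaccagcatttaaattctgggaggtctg
Cd63: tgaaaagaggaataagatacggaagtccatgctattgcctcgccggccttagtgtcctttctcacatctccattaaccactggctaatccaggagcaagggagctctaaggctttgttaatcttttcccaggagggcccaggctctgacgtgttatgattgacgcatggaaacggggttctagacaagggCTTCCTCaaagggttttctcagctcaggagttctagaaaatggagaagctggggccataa
Igf1: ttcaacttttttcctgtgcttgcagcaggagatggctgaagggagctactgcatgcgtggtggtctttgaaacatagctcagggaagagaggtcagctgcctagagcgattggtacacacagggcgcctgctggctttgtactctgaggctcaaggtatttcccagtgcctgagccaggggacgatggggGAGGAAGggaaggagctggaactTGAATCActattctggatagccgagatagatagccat
Trem2: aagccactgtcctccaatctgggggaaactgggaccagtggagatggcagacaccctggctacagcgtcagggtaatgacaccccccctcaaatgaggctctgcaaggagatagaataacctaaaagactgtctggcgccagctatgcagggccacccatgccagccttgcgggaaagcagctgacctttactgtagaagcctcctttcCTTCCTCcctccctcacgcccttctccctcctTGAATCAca
Cd68: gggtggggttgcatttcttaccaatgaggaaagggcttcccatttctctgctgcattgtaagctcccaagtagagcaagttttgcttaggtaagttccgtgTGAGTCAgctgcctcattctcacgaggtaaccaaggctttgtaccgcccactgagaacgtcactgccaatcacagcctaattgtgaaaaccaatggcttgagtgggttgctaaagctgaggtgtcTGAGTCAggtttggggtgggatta
Of these, *Cd68* holds only AP-1 letters, at 2 places, *Spp1* and *Cd63* hold only the PU.1 letters, and *Igf1* and *Trem2* hold both. *Axl*, which was also called, holds the PU.1 letters, but its window is not printed. *Itgax*, which was not called, holds the AP-1 letters. A match is a description of the sequence and says nothing of binding.

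Of 12 genes of homeostatic microglia 6 rose and none fell (median 1.13), although 1 was called without C and 4 without sham D. *Fcrls*, a surface protein of microglia, had 51.9, 65.7, 399, 50.9 and 97.1 CPM after MCAO and 25.7, 28, 25.1 and 32.8 in sham (log2 fold change 2.24 ± 0.43), with no overlap, and it was not called without C. *Cx3cr1*, the fractalkine receptor, was at 213 to 803 CPM against 114 to 209 (1.26 ± 0.29). The purinergic receptor *P2ry12*, whose level marks resting microglia, was at 16.3 to 29.5 CPM against 5.93 to 18.5 and was not called (log2 fold change 0.97 ± 0.36, adjusted p = 0.0807). All 12 log2 fold changes of this list were positive.

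Of 20 lysosomal genes 14 rose and none fell, with a median of 1.24 (0.77 without C), and 6 were called without C and 10 without sham D. *Ctss*, the cathepsin S of microglia, stood at 271, 259, 853, 228 and 290 CPM against 67.1 to 92.4 (2.34 ± 0.30), and *Lamp1*, a protein of the lysosomal membrane, at 415 to 773 against 299 to 351 (0.66 ± 0.15, not called without C). Of 17 complement genes 8 rose (median 2.23, 5 called without C and 7 without sham D). The first component was represented by *C1qa* (148, 202, 910, 173 and 289 CPM against 54.9 to 68.7), *C1qb* and *C1qc*, all called with every library left out in turn. *C4b* was at 74.4, 87, 41, 68.1 and 72.6 CPM against 4.01 to 11.4 (2.96 ± 0.39), and here C was the lowest MCAO library. *C3* was at 0 in every sham and at 1.44 to 5.01 CPM after MCAO and was not called. Among 6 Fc receptor genes, through which phagocytes take up antibody-coated material, 4 rose (median 2.92, 2 called without C and 3 without sham D), *Fcer1g* with 64.6, 63.6, 406, 61.4 and 50.1 CPM against 12.3 to 17.3.

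Of 12 genes of lipid export and storage 9 rose (median 2.10), with 2 called without C and 4 without sham D. The 2 that held were *Abca1*, which exports cholesterol to apolipoproteins (78.5, 84.5, 177, 84 and 85.2 CPM against 10.9 to 25.7, 2.58 ± 0.33), and *Lgals3bp* (64 to 107 CPM against 12 to 21). *Lgals3bp* is not itself a lipid transporter, and the study names it among ligands of innate immune responses. *Msr1*, the scavenger receptor of foam cells, was at 2.88 to 5.01 CPM in A, B, D and E, at 108 in C and at 0 to 0.93 in sham, and *Plin2*, which coats lipid droplets, at 11 to 16.8, at 291 and at 1.14 to 7.76. For both, C held most of the signal and the call was lost without it. None of 16 genes of cholesterol synthesis was called in edgeR's test (median -0.02), 1 had an unadjusted p under 0.05, and DESeq2 and limma called 0. Of 12 genes of iron and heme handling 1, the ferritin light chain gene *Ftl1*, rose, and it was not called without C or without sham D. *Ftl1* had a mean of 19.1 CPM after MCAO and 1.21 in sham. The part of reads that could not be placed uniquely in these low levels was not tested. The heme oxygenase *Hmox1* was at 29.2 CPM in C, at 0.58 to 5.64 in A, B, D and E and at 0.46 to 4.01 in sham.

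**Figure D3:**
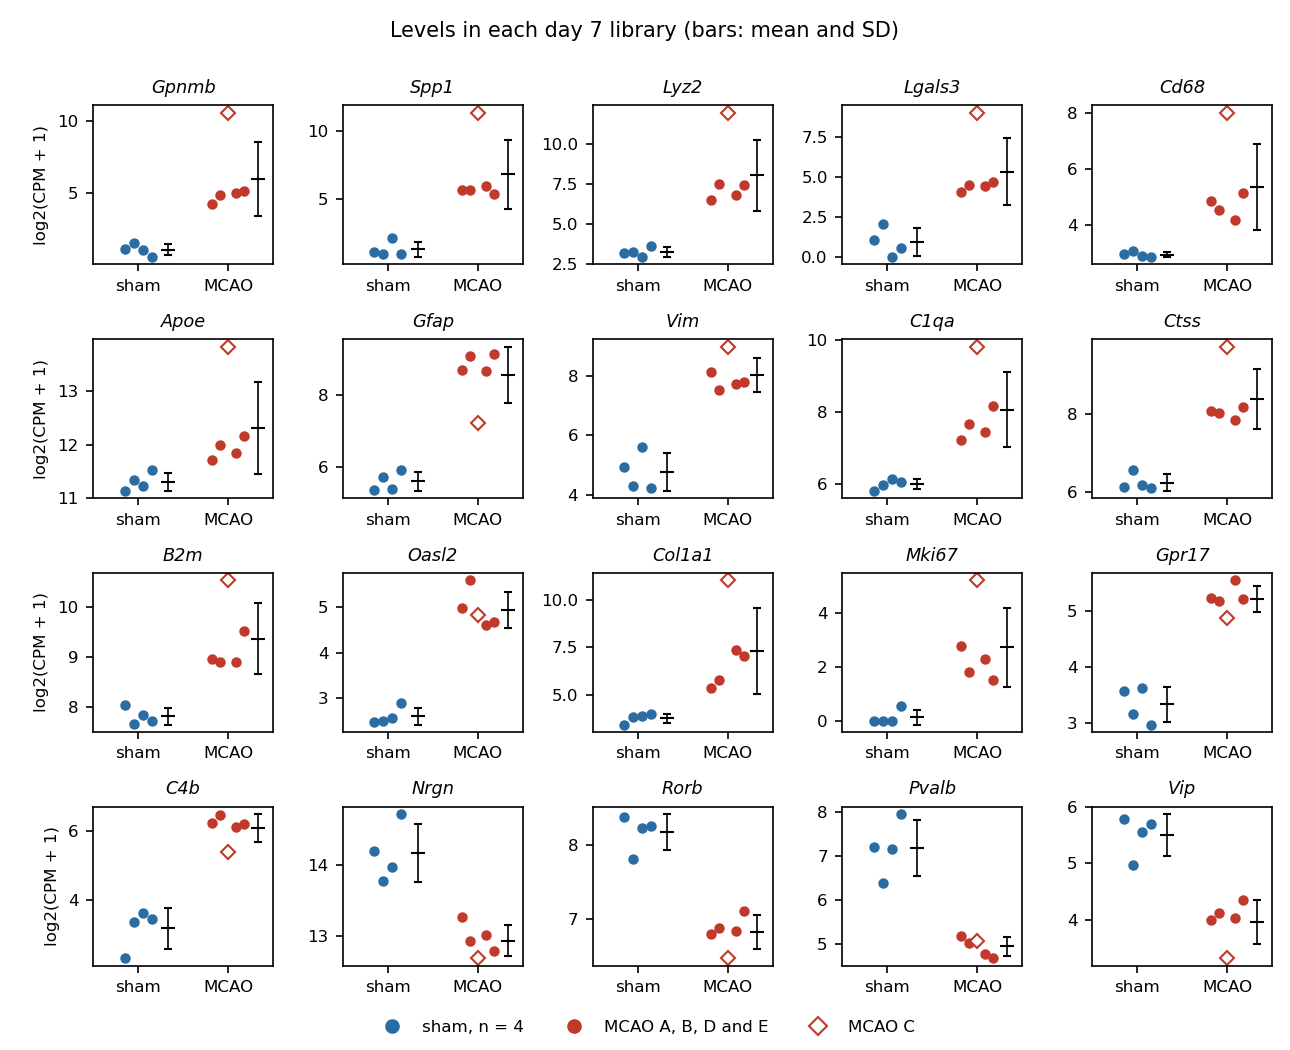
Levels of 20 genes in each day 7 library are drawn as log2(CPM + 1), with sham in blue (n = 4), MCAO A, B, D and E as red points and MCAO C as an open diamond; the bars are the mean and SD of each group. Phagocyte genes such as *Gpnmb* and *Lyz2* are highest in C, *Gfap* and *C4b* are lowest in C among the MCAO libraries, and the neuronal genes *Nrgn*, *Rorb*, *Pvalb* and *Vip* lie below sham in all 5.

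Some genes of reactive astrocytes rose. *Gfap*, the intermediate filament protein of reactive astrocytes (chromosome 11, 102887336 to 102900912), had 411, 537, 146, 403 and 561 CPM after MCAO and 40.1, 51.3, 40.9 and 59.3 in sham. The groups did not overlap, C was the lowest MCAO library, and the log2 fold change was 3.10 ± 0.39 (adjusted p = 2.27e-06). *Vim*, a second filament gene that is also used by fibroblasts and macrophages, stood at 282, 185, 514, 213 and 222 CPM against 17.8 to 48 (3.32 ± 0.44). Of 20 reactive astrocyte genes 5 rose and none fell, with a median of 2.28 (1.34 without C), and the 5 were also called without C and 4 without sham D. They were *Gfap*, *Vim*, *Cd44*, *Osmr*, the receptor of oncostatin M, and *Serpina3n*, a protease inhibitor (17.8 to 40.7 CPM against 2.73 to 8.58, not called without sham D). Of the 20 log2 fold changes 18 were positive. *Lcn2*, a secreted protein of acutely reactive astrocytes, was at 0 to 1.73 CPM against 0 to 0.47 and was not called.

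Genes of astrocyte homeostasis did not move together. Of 15 such genes 2 rose and none fell, and the median was -0.01. *Aqp4*, the water channel of astrocyte endfeet, had 143, 148, 79.1, 179 and 170 CPM after MCAO and 61.8, 54.6, 61.6 and 29.7 in sham (1.47 ± 0.22). *Gja1*, the gap junction protein connexin 43, had 167, 154, 156, 180 and 154 CPM against 61.8, 54.6, 92.1 and 32.8 (1.43 ± 0.24). Both were called with each library left out in turn. The glutamate transporter gene *Slc1a2* was at 1738 to 2918 CPM against 2383 to 2979 and *Aldh1l1* at 16.1 to 27.8 against 13.5 to 24.6, with overlapping groups.

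Of 13 genes of antigen presentation by MHC class I 7 rose and none fell (median 2.27, 4 called without C and 4 without sham D). *Psmb10*, an immunoproteasome subunit, had a mean of 30.6 CPM after MCAO and 48.6 in sham and was not called. *B2m*, the light chain of class I molecules, had 501, 479, 1474, 479 and 737 CPM after MCAO and 202 to 262 in sham (1.70 ± 0.28). The heavy chain gene *H2-K1* was at 118, 108, 256, 105 and 107 CPM against 21 to 36.5, and *Psmb8*, a subunit of the immunoproteasome, at 8.14 to 45.2 against 0 to 4.58. Of 7 class II genes 3 rose, *Cd74*, *H2-Aa* and *H2-Ab1*, with none of the 3 called without C and 1 without sham D. *H2-Aa* was at 16.2, 31, 86.3, 26.4 and 20 CPM against 1.72 to 8.87.

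Of 18 interferon response genes 10 rose and none fell, all 18 had positive log2 fold changes, and the median was 2.02, or 2.09 without C, where 8 were called. *Oasl2*, an interferon-induced antiviral gene, had 30.6, 47.3, 27.4, 23.5 and 24.4 CPM after MCAO and 4.58 to 6.39 in sham (2.56 ± 0.45). *Ifi27l2a* was at 15, 13.7, 11.3, 14.9 and 7.52 CPM against 0 to 1.09, and *Ifitm3*, which blocks the entry of viruses, at 87.1 to 224 against 28.9 to 49.2. In *Ifit1* and *Ifit3* C was the lowest MCAO library, with 3.57 CPM against 12.1 to 19.4 and 16.7 against 31.2 to 39.7 in A, B, D and E. *Isg15* (8.64 to 21.9 CPM against 0.46 to 1.64) was called in 1 of the 9 fits that leave out a library. Without sham D, 6 of the 18 were called.

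Of 16 chemokine and chemokine receptor genes 5 rose (median 3.21), 1 without C and 1 without sham D. *Ccl5*, which draws T cells and monocytes, was at 15, 6.62, 3.57, 2.40 and 5.64 CPM against 0 to 0.57, with 2 counts in all shams and a ratio of 25.8 (95% exact interval 6.83 to 218, counting error only). *Ccl2*, the main monocyte chemokine, was at 0.96 to 1.25 CPM in A, B, D and E and at 16.7 in C and was not called. Of 18 cytokine and cytokine signalling genes 1 rose, the TNF receptor *Tnfrsf1b*, and it was not called without C or without sham D. *Il1b*, a cytokine of the acute phase, was at 1.02 to 3.57 CPM after MCAO against 0 to 1.09 (log2 fold change 2.26 ± 1.70).

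Collagen and scar matrix genes gave the second largest count, and many of the calls rested on C. Of 25 genes 15 rose and none fell, with a median of 2.68, but 4 were called without C with a median of 1.20, and 9 without sham D. *Col1a1*, a chain of fibrillar type I collagen, had 39.2, 52.9, 2090, 161 and 130 CPM after MCAO and 9.73, 13.1, 13.6 and 14.6 in sham (5.26 ± 0.82, 2.90 without C). *Col1a2* stood at 46.2, 55, 1669, 168 and 133 CPM against 9.58 to 25.6, and *Sparc*, a collagen-binding protein, at 348, 413, 1108, 442 and 405 against 150 to 209. These with *Col3a1* were the 4 genes called without C, and in all of them A, B, D and E lay above every sham. *Lox*, which crosslinks collagen, was at 0 to 6.24 CPM in A, B, D and E and at 70.2 in C, with 3 counts in the shams. The fibroblast markers gave 4 rises of 13 (median 1.87, 1.17 without C, 3 called without C and 3 without sham D), the collagen genes and *Dcn* (52.5, 45.3, 377, 85.4 and 72 CPM against 14.6 to 29.4), which was not called without C. The summed CPM of these 13 genes was 283 to 7122 after MCAO and 170 to 316 in sham.

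Of 17 genes of proteases and their inhibitors 4 rose, *Mmp12*, *Mmp14*, *Plat* and *Plau*, of which *Mmp14*, a membrane-bound collagenase, was the 1 gene called without C and the 1 called without sham D (13.8, 13.7, 117, 18.2 and 16.9 CPM against 1.37 to 7.00). Of 18 genes of TGF-beta and IGF signalling 3 rose, the receptor *Tgfbr2* and the binding proteins *Igfbp5* and *Igfbp7*, and *Igfbp7* was not called without C or without sham D. *Igfbp5* was at 114, 185, 321, 168 and 180 CPM against 37.9 to 75.2. The ligand *Tgfb1* was at 15.5 CPM in C and at 1.73 to 4.07 in A, B, D and E. Of 11 brain proteoglycan genes 1, *Vcan*, rose, with 25.7 to 31.7 CPM in A, B, D and E, 70.8 in C and 15.9 to 18.9 in sham, and it was not called without C or without sham D.

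Few vascular genes were called. None of 15 endothelial genes was called in edgeR's test (median -0.02), 3 had an unadjusted p under 0.05, DESeq2 called 1 and limma 0. In addition, 1 of 12 genes of pericytes and smooth muscle rose (*Pdgfrb*), and 1 of 15 angiogenesis genes rose (*Nrp1*, 38.2 to 60.5 CPM in A, B, D and E, 246 in C and 29.7 to 43.1 in sham), neither without C nor without sham D. None of 13 genes of heat shock and hypoxia was called in edgeR's test (median 0.08), 3 had an unadjusted p under 0.05, and DESeq2 and limma called 0.

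Of 20 cell cycle genes 5 rose (median 1.66, 1.10 without C). Without C 1 of them, *Cdk1*, was called, and without sham D 3 were. *Mki67*, a marker of dividing cells, had 5.77, 2.54, 35.7, 3.84 and 1.88 CPM after MCAO and 0, 0, 0 and 0.46 in sham, a ratio of 75.2 (95% exact interval 13.1 to 3000, from 1 sham count, counting error only). *Top2a*, the topoisomerase of dividing cells, stood at 12.7, 11.7, 126, 9.60 and 12.5 CPM against 1.09 to 4.01. A, B, D and E were above every sham for both genes, at a small part of the level in C.

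Oligodendrocyte lineage genes were called in 3 lists. Of 12 precursor genes 3 rose and all 12 were positive (median 0.79), with 2 called without C, 1 without sham D and 2 with spike-in scaling. *Gpr17*, a receptor of precursors that are about to mature, had 36.9, 35.6, 28.6, 46.1 and 36.3 CPM after MCAO and 10.9, 7.93, 11.4 and 6.84 in sham (1.99 ± 0.31, adjusted p = 3.7e-05), and it was called with each library left out in turn. *Lhfpl3* was at 6.54 to 24.4 CPM against 3.19 to 8.40, and *Pdgfra*, the growth factor receptor of precursors and of some fibroblasts, at 16.2 to 37.5 against 1.82 to 16.4. Of 14 myelin genes 1 rose (median 0.50), and 0 were called without sham D or with spike-in scaling. Of 11 genes of reactive oligodendrocytes 5 rose, also without C (median 1.70, 1.28 without C), and 4 without sham D. They were *B2m*, *C4b*, *Cd63*, *H2-D1* and *Serpina3n*. Part of that list was named by the study for the same injury, so its count is not independent evidence of a direction, and the 5 genes are also used by astrocytes or microglia.

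Some neuronal genes fell. Of 18 genes of excitatory cortical neurons 4 fell and none rose, 2 were positive and the median was -0.57. *Nrgn*, a calmodulin-binding protein of dendritic spines, had 9846, 7840, 6605, 8298 and 7104 CPM after MCAO and 18777, 14069, 16142 and 26888 in sham (-1.26 ± 0.26). *Rorb*, a transcription factor of layer 4 (chromosome 19, 18930605 to 19111196), stood at 111, 117, 88, 114 and 137 CPM against 330, 224, 299 and 303 (-1.35 ± 0.29). The NMDA receptor gene *Grin2a* was at 224 to 295 CPM against 335 to 470 (-0.68 ± 0.15). The groups did not overlap for any of the 4. Without C *Grin2a* was no longer called (-0.64) and *Fezf2*, a factor of deep-layer neurons, was, and without sham D *Nrgn* was not called. With spike-in scaling 3 of the list were called lower. *Slc17a7*, the vesicular glutamate transporter, was at 308 to 594 CPM against 515 to 860 and was not called. The summed CPM of the list was 13663 to 19860 after MCAO and 25265 to 40032 in sham.

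Of 16 genes of inhibitory neurons 4 fell and none rose (median -0.21), with 2 called without C, 2 without sham D and 2 with spike-in scaling. The list did not move together, and 5 of its log2 fold changes were positive. *Gad1* had a mean of 128 CPM after MCAO and 87.3 in sham, *Gad2* had 114 and 75.2, and neither was called. *Pvalb*, the calcium buffer of fast-spiking cells, had 35.2, 31.6, 32.7, 26.4 and 24.4 CPM after MCAO and 147, 82.6, 142 and 246 in sham (-2.36 ± 0.52), and it was not called without sham D. *Vip*, a peptide of another interneuron class, was at 15, 16.3, 8.92, 15.4 and 19.4 CPM against 54.4, 30.3, 46.3 and 50.6 (-1.59 ± 0.33). *Cck*, another peptide, fell as well, but *Sst*, the peptide of a further class, was at 220 to 317 CPM against 240 to 323 (-0.03 ± 0.19, adjusted p = 0.97). Of 17 activity-induced genes 13 had positive log2 fold changes, with a median of 0.45, but none was called higher. The 1 gene that fell was *Homer1*, a scaffold of the synapse (117 to 206 CPM against 254 to 326), and it was not called without C or without sham D. Of 16 genes of axon injury and regeneration 2 rose. They were *Jun*, which is induced in injured neurons and in other stressed cells (138, 130, 152, 177 and 89.6 CPM against 38.3 to 63.8), and *Tubb6*, which was not called without C or without sham D.

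The 8 largest falls, taken among genes whose libraries did not overlap, were in genes of varied function. *Trbc2*, a constant region gene of the T cell receptor beta chain (chromosome 6, 41546730 to 41548352), had 3.46, 3.05, 5.95, 0.48 and 1.25 CPM after MCAO and 38.9, 26.6, 42 and 39.2 in sham (-3.69 ± 0.66). It was at 22.8 ± 6.22 CPM in the control (SD, n = 4), while *Trac*, the constant region gene of the alpha chain, was at 0 to 1.64 CPM in all 9 libraries. Its reads can be shared with the near-identical *Trbc1*, so the value of *Trbc2* alone is uncertain, as are the splits between *H2-K1* and *H2-D1* and among the hemoglobin genes. *Cpne9*, a calcium-binding copine, stood at 11, 7.12, 4.76, 7.20 and 10.6 CPM against 57.8, 39.7, 57.2 and 77.6 (-2.83 ± 0.47). The others were *Tcap*, *Pvalb*, *Myl4*, *Teddm2*, *Gm37248* and the potassium channel subunit gene *Kcnab3* (11 to 33.8 CPM against 53.7 to 129), with log2 fold changes between -2.79 and -2.25. Of the 8, *Kcnab3* alone was not called without C. *Trbc2*, *Cpne9* and *Myl4* were called with each library left out in turn, and the others were not.

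**Figure D4:**
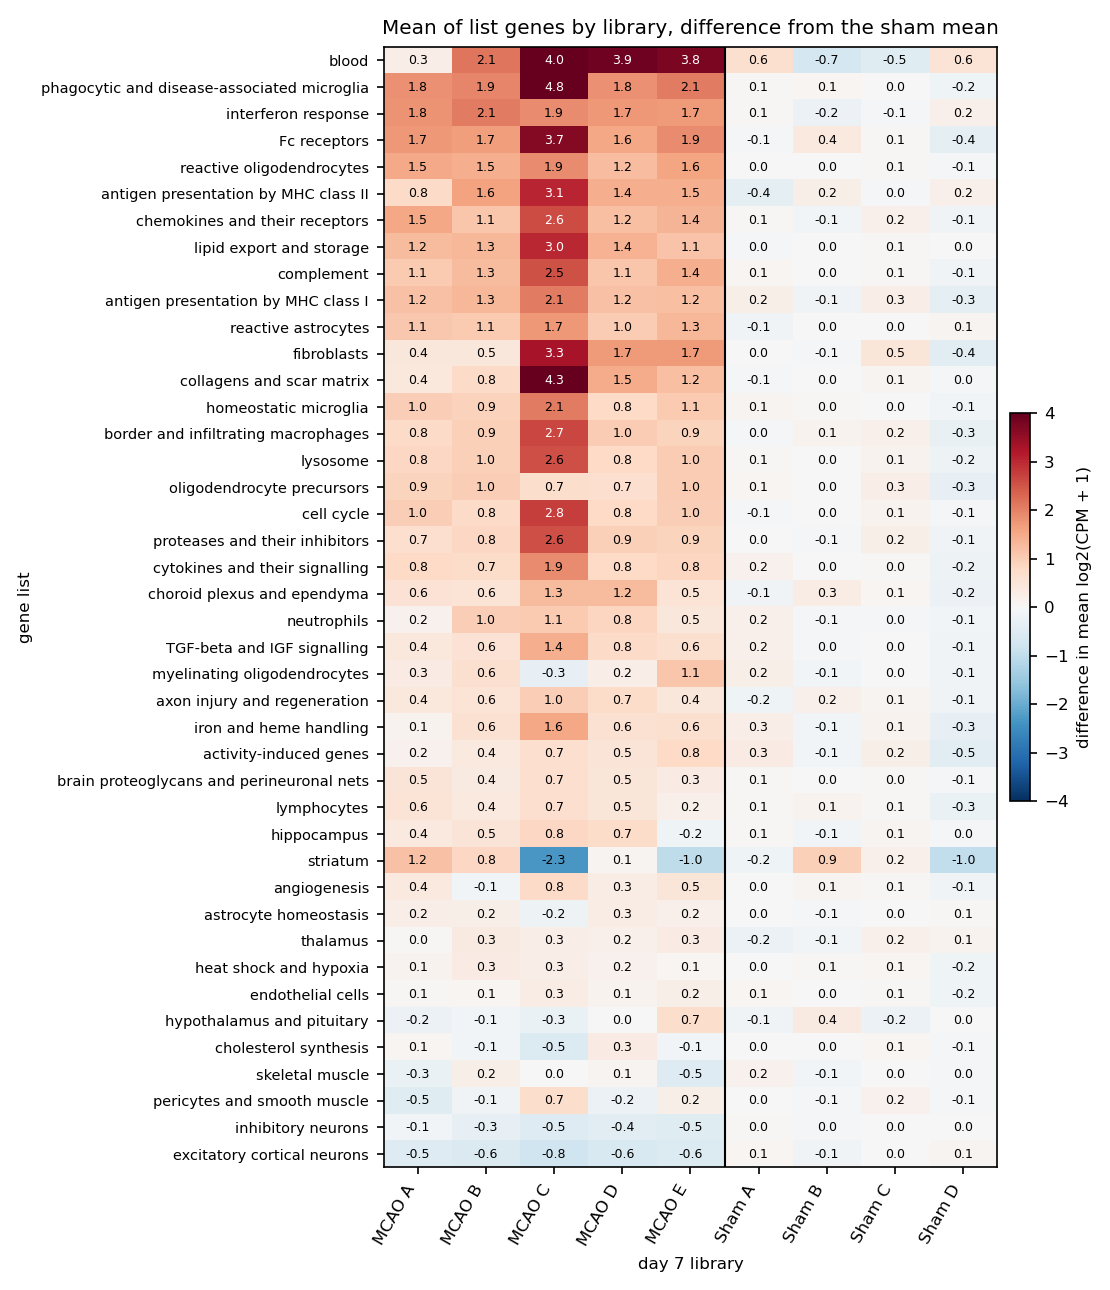
The mean log2(CPM + 1) over the genes of each of 42 lists is drawn for the 9 libraries of day 7, as the difference from the mean of the 4 shams, with the lists ordered by the mean of MCAO A, B, D and E. Red cells are above the sham mean and blue cells below it. Phagocytic microglia genes are at 1.83 to 2.08 in those 4 and at 4.83 in C, collagen genes at 0.42 to 1.48 and 4.27, interferon genes at 1.69 to 2.09 in all 5, and excitatory neuron genes at -0.79 to -0.53.

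Markers of other cells and tissues differed between MCAO and sham in some cases. Hemoglobin genes rose, 4 of 5 blood genes being called (3 without C and 3 without sham D), and the summed CPM of the 5 was 34.6 to 725 after MCAO and 9.8 to 49.2 in sham. *Hba-a1* stood at 12.1, 63.6, 171, 188 and 138 CPM against 4.20 to 14.1, so library A lay within the range of the shams, and the part of blood in the results was not tested. *Alas2*, a defining gene of young red cells, was at 0 to 3.84 CPM. Of 14 genes of border and infiltrating macrophages 4 rose, none of them without C or without sham D, and the summed CPM was 37.5 to 328 against 9.58 to 22.9. *Ms4a7* was at 2.88 to 7.68 CPM in A, B, D and E, at 54.1 in C and at 0 to 1.40 in sham, and the part of these cells in the phagocyte genes was not tested. None of 10 neutrophil genes or 9 lymphocyte genes tested was called in edgeR's test, and their summed levels were 5.77 to 29.2 against 0.912 to 5.15 CPM and 9.39 to 32.3 against 3.65 to 18.7 CPM. In each of these 2 lists 3 genes had an unadjusted p under 0.05, DESeq2 called 0, and limma called 1 neutrophil gene and 0 lymphocyte genes. *Elane*, *Ly6g*, *Cd3e* and *Cd8a* were among the genes with too few counts to test. Genes at 0 in every sham have fitted fold changes that depend on the model, and with such genes at their bound from 3 counts the medians were 2.15 for reactive astrocytes, 1.92 and 2.32 for MHC class I and II, 2.79 for chemokines, 1.21 for cytokines, 2.11 for macrophages, 1.12 for neutrophils (3.12 as fitted) and 0.55 for lymphocytes (1.79 as fitted).

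Of the tissues next to the cortex, 1 of 12 genes of choroid plexus and ependyma rose (*Foxj1*, 3.46 to 11 CPM against 0 to 3.27, not called without sham D), 1 of 10 thalamic genes fell (*Ramp3*, 6.54 to 14.8 against 24.3 to 69.8), and 1 of 9 hippocampal genes rose (*Zbtb20*, also made by astrocytes, 475 to 659 against 286 to 329). None of 11 striatal genes or 8 genes of hypothalamus and pituitary was called in edgeR's test (0 and 1 at an unadjusted p under 0.05, and 0 by DESeq2 and limma), and 1 of 8 skeletal muscle genes fell (*Acta1*, not called without C or without sham D). The striatal genes differed widely between libraries of the same group. Their summed CPM ran from 243 to 2564 after MCAO and from 698 to 2174 in sham, with the mean log2 level lowest in MCAO C (-2.32 from the sham mean), MCAO E (-1.02) and sham D (-0.98) and highest in MCAO A (1.18). The part of striatal tissue in the results was not tested.

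The list levels show where library C lay among the MCAO libraries. It was the highest of the 5 in the level of phagocytic microglia (4.83 from the sham mean, against 1.83 to 2.08), lysosome (2.59 against 0.79 to 1.02), cell cycle (2.78 against 0.76 to 0.97) and collagen genes (4.27 against 0.42 to 1.48). It was within the range of the others for interferon genes (1.89 against 1.69 to 2.09), the lowest for excitatory neurons (-0.79 against -0.62 to -0.53), and below all shams for astrocyte homeostasis (-0.20 against 0.20 to 0.30 in the other 4).

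The MCAO effect of day 7 was set beside those of days 1 and 3, each against the sham of its day. At day 1 edgeR's test called 16 genes higher (0.0801%) and 2 lower (0.01%) with 4 MCAO libraries, and at day 3 750 higher (3.76%) and 52 lower (0.26%) with 5. A gene called on 1 day and not on another is not shown to differ, and the test of the difference itself called 6 genes for day 7 against day 1 (0.03%) and 0 for day 7 against day 3, where 3231 genes had an unadjusted p under 0.05. DESeq2 called 57 for day 3 and limma 36. The count for day 3 was 32 without library A of the MCAO group of day 3, the library more like day 7, and 17 without MCAO C of day 7. The count for day 1 was 15 without library D of the MCAO group of day 1 and as low as 2 without others. That library D was the one more like days 3 and 7 than its own group.

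Of the 6 genes that differed from day 1, *Gpr17*, *Selenop* and *Kcne1l* rose at day 7 and had log2 fold changes of -0.38, -0.42 and -0.61 at day 1. *Gpr17* had 36.7 ± 6.23 CPM after MCAO at day 7 (SD, n = 5) against 9.27 ± 2.23 in sham (n = 4), and 11 ± 2.86 against a sham mean of 14.1 at day 1, and the difference of the log2 fold changes was 2.37 ± 0.449 (SE). *Kcne1l*, a small regulatory subunit of potassium channels, was at 17.9, 22.9, 10.7, 19.2 and 21.3 CPM after MCAO and 1.82 to 3.73 in sham at day 7, and the difference was 3.45 ± 0.64. *Selenop*, a selenium transport protein, gave a difference of 1.87 ± 0.347. *Katnbl1*, which regulates the severing of microtubules, was the opposite, with 27.6 to 39.8 CPM after MCAO and 57.9 to 62.5 in sham at day 7 and a difference of -1.45 ± 0.273. *Tmem181b-ps*, a pseudogene, differed through its level at day 1. It was at 0 to 0.425 CPM in all 4 MCAO libraries of day 1 and at 4.46 to 56 in each of the other 44 libraries of the series, and it was not called at day 7. Its reads can be shared with its parent gene, so the value is uncertain.

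Over the 3 days the glial lists had different courses in the group medians, none of which was tested as a difference between days. The median log2 fold change of phagocytic microglia genes was 1.35 at day 1, 2.96 at day 3 and 3.04 at day 7 (1.89 without C), with 0, 16 and 20 genes called. For collagen genes it was 0.49, 1.92 and 2.68 (1.20 without C), with 0, 10 and 15 called. For reactive astrocytes it was 2.10, 2.89 and 2.28 (1.34 without C), with 3, 10 and 5 called, and *Gfap* stood at 515 ± 208, 838 ± 405 and 412 ± 165 CPM after MCAO (SD, n = 4, 5 and 5). For cell cycle genes it was 0.50, 3.02 and 1.66 (1.10 without C), with 0, 11 and 5 called (1 at day 7 without C), and for excitatory neurons -0.40, -0.30 and -0.57, with 0, 2 and 4 lower. The MHC class I median was 0.46, 1.37 and 2.27 and that of oligodendrocyte precursors -0.07, 0.76 and 0.79.

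**Figure D5:**
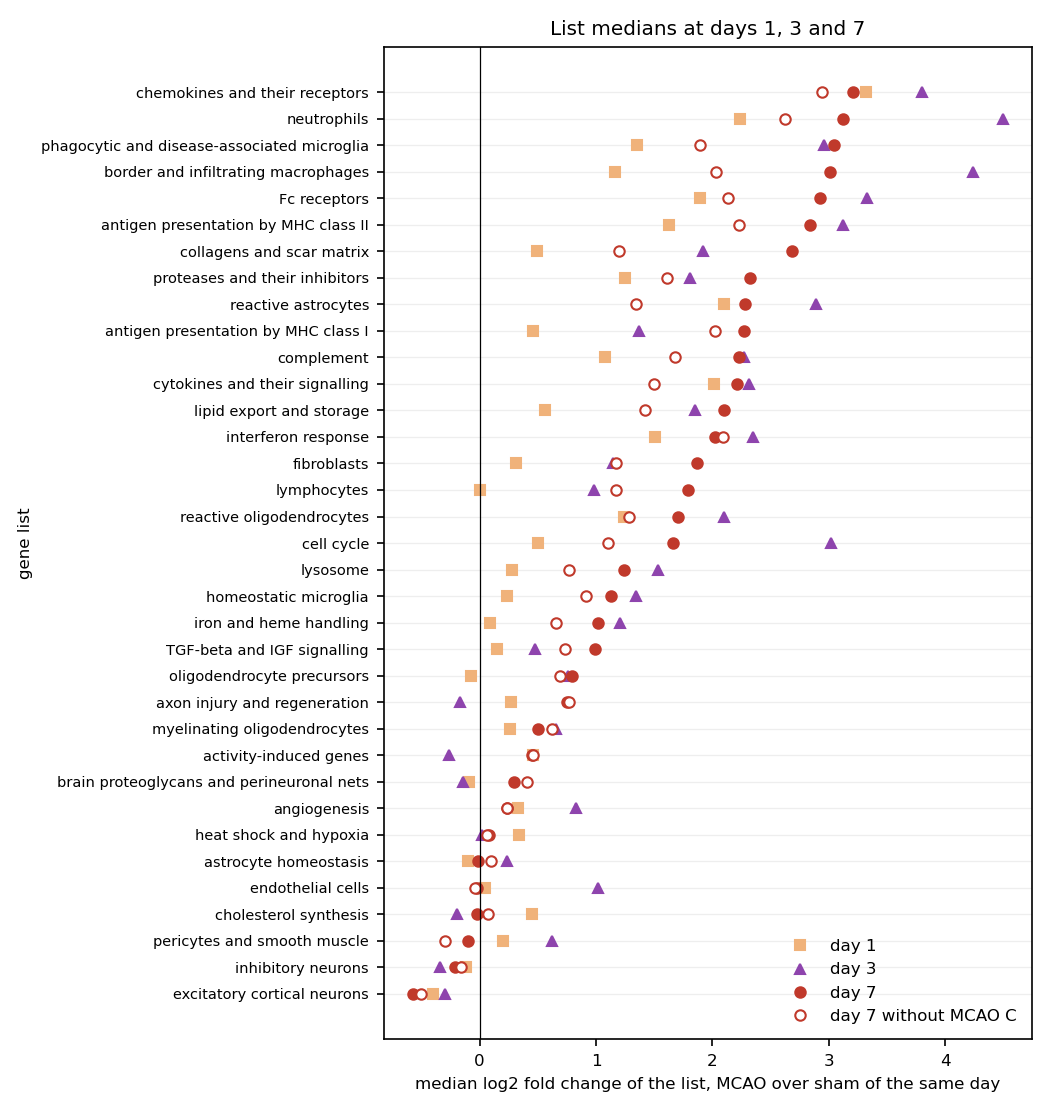
The median log2 fold change of MCAO over the sham of the same day is drawn for each of 35 process and cell type lists at day 1 (orange squares), day 3 (purple triangles) and day 7 (red points), with day 7 without MCAO C as open circles. Phagocytic microglia genes have medians of 1.35, 2.96 and 3.04, cell cycle genes 0.50, 3.02 and 1.66, and excitatory neuron genes stay below 0 on all 3 days.

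Sham at day 7 was set beside the intact control. No gene was called between sham at day 7 and the intact control in edgeR's test (0%), where 1604 genes had an unadjusted p under 0.05, and DESeq2 and limma called 0 as well. *Gfap* was at 47.9 ± 9.18 CPM in sham (SD, n = 4) and 49.9 ± 15 in the control (n = 4), *Apoe* at 2540 ± 300 and 2163 ± 135, and *C1qa* at 62.8 ± 5.93 and 47.9 ± 17.6. Against the control in place of the sham, 217 genes were called higher and 83 lower in the MCAO libraries of day 7. That comparison shares its MCAO libraries with the main one. *Gfap* gave 3.04 there and 3.10 against sham, *Lyz2* 5.87 and 6.70, *Pvalb* -2.01 and -2.36, and *Nrgn* -0.89 and -1.26, the last 2 called against sham only.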

How the data were processed

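RNA was measured with QuantSeq 3′ FWD libraries. Per the study's methods, the authors trimmed reads with Trimmomatic, removed rRNA and mitochondrial reads with SortMeRNA, aligned to GRCm38 with STAR 2.5.2b and counted with htseq-count (union) on Gencode vM8. The deposited files hold raw counts per gene, 1 file a library. A deposited normalised table was not used. Spike-in rows and the counter's summary lines were left out of library sizes: spike-ins were 3.864% to 5.456% of counts in the 9 libraries, and reads on no gene 21.08% to 24.22%. Names were taken from Gencode vM21 on GRCm38, promoters from RefSeq GRCm38.p6.

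Genes with over 10 counts in all 48 libraries (19970) were fitted in 11 groups with edgeR 4.0.16 (TMM, quasi-likelihood test) in R 4.3.3, with Benjamini-Hochberg adjustment over all genes. Alternatives used DESeq2 1.42.0 and limma 3.58.1. SE is the log2 fold change over the root of F. Where all shams were at 0, a bound from 3 counts over the group is given, and with 1 to 3 sham counts a ratio with its exact 95% interval. Bound and ratio pool the counts of all MCAO libraries, so library C weighs most where it is highest. The exact interval holds counting error only and not the spread between libraries. No 2 replicates agreed within sampling noise. On counts simulated for the day 7 comparison (19704 genes), 50 of 50 genes raised by 2 and 20 of 50 raised by 1 on the log2 scale were called. Of genes lowered by 2 and by 1, 47 of 50 and 19 of 50 were called, and 0 unchanged genes. Every simulated gene had the same spread and no simulated library stood apart as MCAO C does. The simulation therefore does not measure false calls in these data.

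Named genes were the 8 largest rises and falls among called genes without overlap and of at least 2 CPM, the first gene and up to 3 called genes of each list, the called differences from day 1, and *Apoe* and *Trem2*. Other list members were named as examples after their values were seen. Some genes counted in the totals are not reported here by name. The comparison, gene lists and tests were chosen with earlier results of these data known, so the list counts are not independent evidence of a direction.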

Additional observations from a re-analysis of the deposited data

Results flagged for a closer look

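Of 312 groups of 4 or 5 values examined, 87 held a library set apart from the others by a gap that Dixon's test finds in about 1 in 20 groups by chance. Of the 87, 68 were high values and 1 was a low value of MCAO C. Many of the values are of genes named for their calls in this same comparison, and those calls rest in part on C. The rate of 1 in 20 therefore cannot tell how unusual these flags are. In the MCAO group, library C lay far above A, B, D and E in CPM, whose range follows each value in parentheses, for *H19* 1080 (8.65 to 29.3), *Clec7a* 89.2 (5.28 to 13.2), *Spp1* 2585 (40.7 to 60), *Gpnmb* 1549 (17.9 to 35.1), *Ccl4* 33.3 (1.44 to 6.35), *Cd5l* 72 (2.88 to 12.2), *Col3a1* 1266 (13.2 to 59.5), *Fcrls* 399 (50.9 to 97.1), *Trem2* 183 (18.7 to 35.6), *Lamp1* 773 (415 to 480), *Lgmn* 221 (52.3 to 86.5), *Ctsh* 282 (34.6 to 58.9), *Ctsz* 287 (31.7 to 50.7) and *C1qa* 910 (148 to 289). The same held for *C3ar1* 163 (16.3 to 29.4), *C1qc* 773 (164 to 249), *Fcer1g* 406 (50.1 to 64.6), *Fcgr4* 20.2 (2.51 to 3.56), *B2m* 1474 (479 to 737), *Psmb9* 12.5 (3.36 to 5.77), *Psmb8* 45.2 (8.14 to 15.6), *H2-K1* 256 (105 to 118), *Cd74* 41.6 (3.46 to 11.3), *H2-Ab1* 56.5 (13.2 to 15.6), *H2-Aa* 86.3 (16.2 to 31), *Ccl2* 16.7 (0.96 to 1.25), *Cxcr4* 26.2 (2.04 to 4.62) and *Tnfrsf1b* 64.8 (9.81 to 17.5). C was likewise the high library, in CPM, for *Abca1* 177 (78.5 to 85.2), *Msr1* 108 (2.88 to 5.01), *Cd36* 48.8 (0.63 to 7.50), *Plin2* 291 (11 to 16.8), *Hmox1* 29.2 (0.58 to 5.64), *Ftl1* 46.4 (10 to 17.8), *Col1a1* 2090 (39.2 to 161), *Lox* 70.2 (0 to 6.24), *Vcan* 70.8 (25.7 to 31.7), *Mmp2* 39.9 (3.56 to 8.14), *Mmp12* 21.4 (0.58 to 3.84), *Plau* 55.9 (0 to 6.26), *Mmp14* 117 (13.7 to 18.2) and *Tgfb1* 15.5 (1.73 to 4.07). Further values of this kind, in CPM, were *Tgfbr2* 62.5 (12.7 to 20.2), *Igfbp7* 137 (31.9 to 52.3), *Nrp1* 246 (38.2 to 60.5), *Mki67* 35.7 (1.88 to 5.77), *Cdk1* 48.8 (5.77 to 8.64), *Atf3* 23.8 (0 to 3.05), *Tubb6* 23.8 (0 to 6.89), *Pdgfrb* 58.3 (13.8 to 26.4), *Dcn* 377 (45.3 to 85.4), *Col1a2* 1669 (46.2 to 168), *Clec12a* 29.7 (1.92 to 3.76), *Ms4a7* 54.1 (2.88 to 7.68) and *Apoe* 14649 (3369 to 4559).

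The list levels, as mean log2(CPM + 1) from the sham mean, gave C apart for astrocyte homeostasis -0.20 (0.20 to 0.30), homeostatic microglia 2.08 (0.79 to 1.05), phagocytic and disease-associated microglia 4.83 (1.83 to 2.08), lysosome 2.59 (0.79 to 1.02), complement 2.54 (1.06 to 1.44), Fc receptors 3.67 (1.56 to 1.90), antigen presentation by MHC class I 2.07 (1.17 to 1.33), chemokines and their receptors 2.61 (1.10 to 1.54), cytokines and their signalling 1.90 (0.73 to 0.85), lipid export and storage 3.02 (1.13 to 1.38), collagens and scar matrix 4.27 (0.42 to 1.48), proteases and their inhibitors 2.58 (0.68 to 0.95), cell cycle 2.78 (0.76 to 0.97) and border and infiltrating macrophages 2.66 (0.77 to 1.02). MCAO E was apart for the genes of hypothalamus and pituitary at 0.69 (-0.26 to -0.01).

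Other libraries were apart for few genes, several of them at 1 count. MCAO A was the highest of its group, in CPM, for *Avp* 0.58 (0 to 0). MCAO D was the highest of its group, in CPM, for *Ttr* 48.5 (0 to 4.16). Sham A was the highest of its group, in CPM, for *Tnfrsf1b* 7.44 (0.91 to 1.87), *Hmox1* 4.01 (0.46 to 0.93), *Ccna2* 0.57 (0 to 0), *Clec12a* 0.57 (0 to 0) and *Ttr* 0.57 (0 to 0). Sham B was the highest of its group, in CPM, for *Cd5l* 0.47 (0 to 0), *Fcgr4* 1.40 (0 to 0) and *Cdk1* 0.47 (0 to 0). Sham C was the highest of its group, in CPM, for *Spp1* 3.27 (0.91 to 1.14) and *Plau* 2.73 (0 to 0). Sham C was the lowest of its group, in CPM, for *Trem2* 7.09 (12 to 12.3). Sham D was the highest of its group, in CPM, for *Aldh1l1* 24.6 (13.5 to 14.9), *Mki67* 0.46 (0 to 0) and *Homer1* 326 (254 to 265). Sham D was the lowest of its group, in CPM, for *Igfbp5* 37.9 (69.1 to 75.2).

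The effect of MCAO, as log2 fold change over the sham of the same day, differed between day 7 and day 1 by edgeR's test of the difference for 6 genes. Among them the difference was 7.01 for *Tmem181b-ps*, 3.45 for *Kcne1l*, 2.37 for *Gpr17*, 1.87 for *Selenop* and -1.45 for *Katnbl1*.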

How the results depend on the processing

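Called genes at day 7, higher and lower, numbered 413 and 285. DESeq2 called 680 and 416 (288 and 283 without MCAO C, chosen after seeing the data), and a fit of the compared groups alone 143 and 159 (292 and 250 without MCAO C, likewise). Without the filter on low counts 590 and 408 were called, with spike-in scaling 403 and 86. DESeq2 size factors, limma voom, a robust prior and filterByExpr kept both counts within 1.5 times. Leaving out 1 library gave 143 to 430 higher and 84 to 290 lower, with the lowest values without MCAO C (143 and 140) and sham D (157 and 84). For the difference of day 7 from day 1 (6 genes), DESeq2 called 53, limma 17, filterByExpr 11, no filter 27, the compared groups alone 2 and spike-in scaling 2, with 2 to 15 on leaving out a library. For day 3 (0 genes), DESeq2 size factors gave 3, DESeq2 57, limma 36, no filter 37, the compared groups alone 1 and spike-in scaling 1, with 0 to 32 on leaving out a library. Sham against control gave 1 gene without a filter and 0 otherwise. No called gene turned its direction without MCAO C. Some list medians near 0 did change sign without it, such as those of astrocyte homeostasis (from -0.01 to 0.10) and of the striatal genes (from -0.10 to 0.17). Among values of named genes over the alternatives, 2050 kept their call, 320 lost it and 4 gained it, with 49 lost in the fit of the compared groups alone, 42 without sham D and 40 without MCAO C. Of the list counts 183 moved by over 1.5 times and 1497 did not, and a pseudocount of 0.1 moved 13 of 42 list levels. The cause was not tested. Genes at a few counts are limited by depth.

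Replicate letters are shared between groups, and the labels do not say what libraries of the same letter have in common. Same-letter deviations correlated at 0.05, 0.11, -0.07 and -0.09, within the range of other-letter pairs (-0.2 to 0.19). The main test paired no libraries. With a replicate block 357 genes were called higher and 245 lower, 9 differed from day 1, 0 from day 3 and 0 in sham against control.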

Other observations

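Some genes stood at 1 of 2 separate levels across the 48 libraries, a search added after the data were seen. With a gap of at least 1.5 on the log2(CPM + 1) scale, at least 4 libraries on each side and a highest level of at least 10 CPM, 16 genes were found, of which 5 were called at day 7. *4930526A20Rik* was at 0.562 to 4.89 CPM in 32 libraries and at 18.4 to 48.8 in 16. It was called higher at day 7 (log2 fold change 3.59), with MCAO A, B, C and D on the high side, MCAO E at 2.51 CPM and the shams at 0.912 to 2.73, but the shams of day 3 were at 22.2 to 30.5 CPM and 3 groups held libraries on both sides. *Cdk1*, *Mki67*, *Prc1* and *Top2a* were high in MCAO C of day 7 and in 4 of the 5 MCAO libraries of day 3, and low in the other 43 libraries.

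*Nr4a1*, an activity-induced gene, was at 31.5, 2.33, 30.5 and 1.82 CPM in sham A to D, and *Ctnnd1*, which encodes a catenin, at 17.2, 2.33, 43.6 and 0.456. Sham B and D were low for both, while the 5 MCAO libraries of day 7 were at 41.5 to 67 and 39.7 to 62.9 CPM. Neither gene was called.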
